A study of Mus musculus with 6 samples.

Results

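The clustered protocadherin genes were taken as all rows of the deposited methylation table whose closest gene carried a name of the alpha, beta, or gamma protocadherin cluster (*Pcdha*, *Pcdhb*, or *Pcdhg* followed by the number or letter of a member), at any distance. Of 31728 gene names in the table, 53 were members, namely 12 alpha, 19 beta, and 22 gamma genes. They lay in 1 row along chromosome 18, all on the plus strand, with transcription start sites (TSSs) from 37063236 to 37276555 for alpha, 37397990 to 37650923 for beta, and 37794845 to 37952565 for gamma, in the coordinates of the table, whose build was mm39. The table listed 1577 CpG sites with a member as the closest gene, out of 2268080 sites in all. Of these 1577 sites, 395 had at least 10 reads in all 6 samples (25.05%, against 30.06% of all sites) and were analyzed. These 395 sites belonged to 39 members (7 alpha, 12 beta, and 20 gamma genes), and 5 alpha, 7 beta, and 2 gamma genes had no such site.

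DNA methylation had been measured by reduced representation bisulfite sequencing (RRBS), which reads CpG-rich fragments after unmethylated cytosines have been converted. Genomic DNA came from GS cells, which are cultured spermatogonia of which only a portion are stem cells. All 6 samples shared the genotype DBA/Tg14(act-EGFP-OsbY01), and were derived from the transgenic line C57BL6/Tg14(act-EGFP-OsbY01) after breeding into DBA/2, so both groups carried the same EGFP transgene. The 3 Space GS cell samples had been cryopreserved for 6 months in the ISS and the 3 Ground GS cell samples for 6 months on Earth, and the comparison asked whether storage in space left a trace in DNA methylation. The paper states that the cells were thawed, cultured, and passaged before their DNA methylation was analyzed. The DNA thus came from cells grown after storage. The age of the donor animals was not given. The replicates were deposited as biological replicates, but the labels did not say whether they were separate cultures, so the p-values measure only the spread between these samples.

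Clustered protocadherins are cell adhesion proteins of the nervous system. Each alternate gene has its own promoter and a large first exon that encodes the extracellular part of the protein, and in the alpha and gamma clusters this exon is spliced to constant exons shared by the whole cluster. A neuron uses a small, largely random choice of the alternate promoters, which gives it a surface identity of its own, whereas the C-type genes at the ends of the alpha and gamma clusters are used more uniformly. The choice is tied to DNA methylation of the promoter and the adjoining exon, to the insulator protein CTCF with cohesin, and to the methyltransferase DNMT3B, and it has been studied mainly in neurons.

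The reads summed over all sites ranged from 28535973 to 33743845 per sample, and the member sites had 10 to 82 reads, with medians of 21 to 26 reads per sample. A single read at the minimum coverage of 10 thus amounts to 10 percentage points. Between pairs of samples, chi-square divided by its degrees of freedom was 1.02 to 1.40 at member sites, where read sampling alone would give 1. As a check of the labeled cell type, 7 of 8 listed germ cell genes that are methylated in most somatic cells had at least 3 sites within 1000 bp of the TSS. Their median level was 2.46%, with a range of 0.740% for *Mael* to 7.57% for *Tex19.1*.

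The DNA methylation level, which is the percent of methylated reads, was low in the first 1000 bp around the protocadherin TSSs and higher farther away. Within 1000 bp of the TSS, 234 sites of 25 members had mean levels of 4.41%, 5.02%, and 4.08% in the Space samples and 4.11%, 4.30%, and 5.08% in the Ground samples. Beyond 1000 bp, 161 sites of 28 members had 31.1%, 28.9%, and 30.9% in the Space samples and 30.5%, 30.8%, and 29.4% in the Ground samples. The samples of both groups were interspersed in both windows. Of the sites within 1000 bp, 213 (91.0%) had a mean level under 10% and 0 had 90% or more. Of the sites beyond 1000 bp, 77 (47.8%) were under 10%, 64 were between 10% and 90%, and 20 (12.4%) were at 90% or above.

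All 3 clusters had a lower mean level within than beyond 1000 bp, but in the alpha cluster the rise lay beyond 5000 bp. In the alpha cluster the level was 4.20% within and 28.1% beyond 1000 bp, a difference of -23.9 ± 2.79 percentage points (SD over 6 samples). In the beta cluster it was 9.12% and 33.6%, a difference of -24.5 ± 1.66, and in the gamma cluster it was 4.17% and 28.3%, a difference of -24.1 ± 1.38. Each difference had the same sign in 6 of 6 samples (exact sign-flip permutation test over the samples, two-sided, p = 0.03125, the smallest it can give, adjusted p = 0.0352 over the 9 contrasts between site groups made here). The sites were the same in every sample, so that these p-values cover the spread between samples and not the choice of sites. Alpha sites were still low past the window, with 2.80% at 17 sites 1000 to 2000 bp downstream and 5.02% at 4 sites 2000 to 5000 bp downstream. Beyond 5000 bp, alpha sites had 54.8% at 9 sites downstream and 75.3% at 6 sites upstream. The 3 differences depended on which sites were counted, as with a minimum of 20 reads they were -2.69 for alpha, -11.6 for beta, and -34.0 for gamma, and with a window of 2000 bp -46.9, -38.3, and -68.9.

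The beta cluster stood above the other clusters within 1000 bp, but this rested on 1 site. Alpha was lower than beta by 4.92 ± 1.72 percentage points and beta higher than gamma by 4.95 ± 1.69, in 6 of 6 samples each (exact sign-flip permutation test, p = 0.03125, adjusted p = 0.0352). Of only 15 beta sites within 1000 bp, 1 lay 91 bp upstream of the *Pcdhb13* TSS and had a mean level of 70.6%, with 78.4%, 68.6%, and 75.9% in the Space samples and 78.3%, 59.1%, and 63.4% in the Ground samples. It had 41 to 58 reads per sample. Without this site, which was singled out after its value was seen, the beta level was 4.73%, alpha less beta was -0.53 ± 1.41 (3 of 6 samples, exact sign-flip permutation test, p = 0.46875), and beta less gamma was 0.55 ± 1.46 (4 of 6 samples, p = 0.40625). Alpha and gamma differed by 0.027 ± 0.632 percentage points (exact sign-flip permutation test, p = 0.9375), and the sign of this difference changed with the sites counted. It was -1.72 without the *Pcdha8* sites, -3.07 with a minimum of 20 reads, and 1.51 with each gene weighted equally (exact sign-flip permutation test, p = 0.03125 for each).

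**Figure D1:**
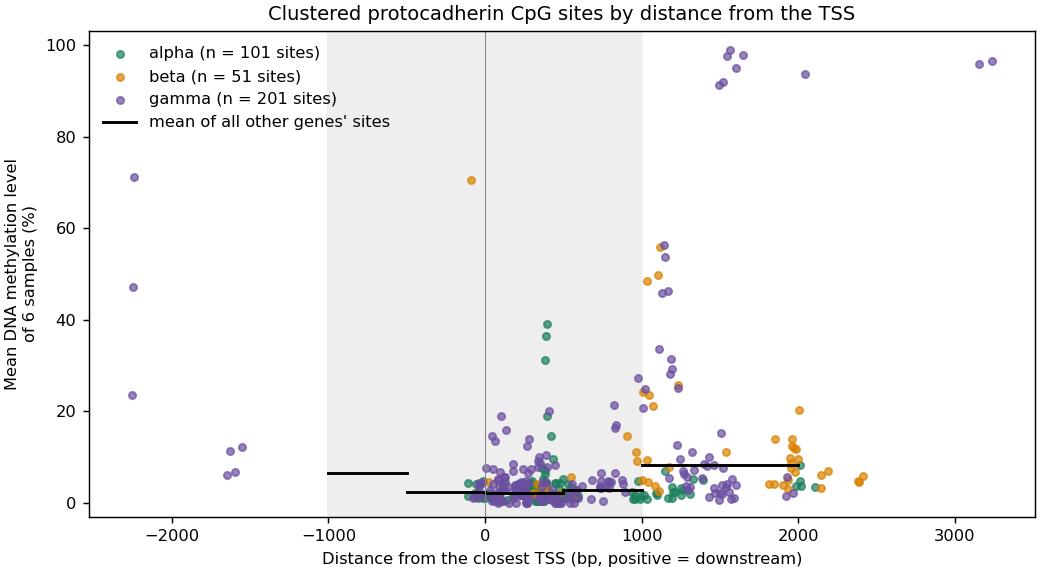
Each point is 1 CpG site closest to a protocadherin gene, placed by its distance from the TSS (x axis, bp, positive downstream) and its mean DNA methylation level over the 6 samples (y axis, %), with the window of 1000 bp in gray and the mean level of all other genes' sites per distance class as black lines. Sites in the gray window lie mostly under 10%, with 21 exceptions. The highest of these are the *Pcdhb13* site at 70.6% and *Pcdha8* sites at up to 39.1%, and others include a *Pcdhga3* site at 27.2%. Sites 1000 to 2000 bp downstream spread from near 0% to over 90%.

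Against all other genes, the mean level of protocadherin sites was higher within 1000 bp and lower over all sites beyond 1000 bp. Within 1000 bp, the mean site level was 4.50% for members and 2.45% for the 390334 sites of other genes, a difference of 2.05 ± 0.587 percentage points in 6 of 6 samples. Beyond 1000 bp it was 30.3% and 43.6%, a difference of -13.3 ± 0.867 in 6 of 6 samples (exact sign-flip permutation tests, p = 0.03125, adjusted p = 0.0352 for both). Neither sign held under every setting. With each gene weighted equally, the near difference was -1.002 ± 0.568 (7.62% for members and 8.62% for other genes, 5 of 6 samples, exact p = 0.0625), and with a window of 2000 bp the far difference was 5.83 (exact p = 0.03125).

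The lower far level did not appear within single distance classes. Members were above other genes in each class that held member sites, except from 2000 to 5000 bp downstream, where both were close. From 0 to 500 bp downstream of the TSS, 166 member sites had a mean of 4.19%, against 2.13% at other genes, and from 500 to 1000 bp 52 member sites had 4.69%, against 2.90%. From 1000 to 2000 bp, 98 sites of 18 members had 16.5% (15.1% to 17.9% in the 6 samples), against 8.30%. From 2000 to 5000 bp downstream the level was 25.6% at 14 member sites and 26.7% at other genes. From 1000 to 5000 bp upstream the level was 32.8% at 8 member sites and 29.9% at other genes. Beyond 5000 bp it was 56.9% at 30 member sites downstream and 84.3% at 11 upstream, against 51.1% and 54.6%. Of the 161 member sites beyond 1000 bp, these 30 and 11 lay beyond 5000 bp. For other genes, 121179 downstream and 87857 upstream of 291075 such sites did. Whether this makeup of sites bears on the lower far level was not tested. Of the 234 near sites, 218 were downstream of the TSS, in the direction of the first exon.

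The first exons of these genes are long, so that many sites beyond 1000 bp are still exonic. In the GENCODE M21 annotation, matched by gene ID, the first exons of the 53 members were 2346 to 8695 bp long, with a median of 2613 bp. These lengths belong to the GRCm38 build and were used only as lengths. Of 142 sites more than 1000 bp downstream of the TSS, 110 lay within the first exon length and had a mean level of 16.2%, and 32 lay past it and had 59.4%. By cluster, the sites beyond 1000 bp but within the exon length had 3.23% at 21 alpha sites, 13.1% at 36 beta sites, and 23.5% at 53 gamma sites.

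Of the members with at least 3 sites within 1000 bp, 22 could be described by gene, with reads pooled over their sites. Their levels ranged from 1.23% to 19.9%, with a median of 3.74%, and 1 gene was above 10%. In the whole table the median of 14373 such genes was 1.82%, and 4.65% of them were above 10%. The remaining members had fewer than 3 sites in this window and are not covered by these counts.

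In the alpha cluster, *Pcdha8*, an alternate gene, had the highest level of all 22 members. Its level was 18.8%, 14.5%, and 17.3% in the Space samples and 17.9%, 25.5%, and 25.7% in the Ground samples, so that all 6 samples were above 10%. Its 8 sites, 384 to 500 bp downstream of the TSS (37125807 to 37125924 in the table), had identical coverages of 13 to 40 reads in each sample and were therefore read from the same fragments. The level fell along the fragment, from 31.2%, 36.5%, 19.09%, and 39.1% at the 4 sites up to 395 bp to 14.6%, 9.52%, 4.31%, and 5.20% at the 4 sites from 423 to 500 bp. *Pcdha5* and *Pcdha3*, the only other alternate alpha genes with an analyzed site within 1000 bp, were lower. *Pcdha5* had 0%, 6.48%, and 7.19% in the Space samples and 2.22%, 0.617%, and 5.88% in the Ground samples. *Pcdha3* had 1.43%, 4.80%, and 2.08% in the Space samples and 7.86%, 0%, and 0.909% in the Ground samples. For both genes the groups overlapped, and the highest sample of either gene lay below the lowest sample of *Pcdha8*.

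In the beta cluster, whose genes lack shared constant exons, only *Pcdhb1* and *Pcdhb2* had 3 sites within 1000 bp. *Pcdhb1* had 4.38%, 2.30%, and 5.75% in the Space samples and 4.18%, 2.82%, and 3.18% in the Ground samples. *Pcdhb2* had 10.3%, 9.88%, and 4.17% in the Space samples and 1.82%, 5.49%, and 4.49% in the Ground samples. Both genes overlapped between the groups.

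In the gamma cluster, 15 genes ranged from 1.23% to 9.53%. *Pcdhga1*, an alternate gene at the start of the cluster, was the highest, with 6.70%, 8.73%, and 8.90% in the Space samples and 14.0%, 11.9%, and 7.02% in the Ground samples. *Pcdhga8* had a mean level of 9.21% (6.14% to 12.5% in the 6 samples) and *Pcdhgb4* one of 6.87% (2.67% to 11.3%), so that these neighbors in the order did not differ beyond their spread from *Pcdhga1*. At the low end were *Pcdhgb7* at 1.27% (0% to 2.50%), the C-type gene *Pcdhgc3* at 1.43% (0.286% to 3.19%), and the C-type gene *Pcdhgc4* at 1.23% (0.344% to 2.52%). The sample ranges of these low genes lay below that of *Pcdhga1*.

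C-type genes had lower levels near the TSS than alternate genes. The 89 sites of *Pcdhac1*, *Pcdhac2*, *Pcdhgc3*, and *Pcdhgc4* had 2.15%, 2.29%, and 1.42% in the Space samples and 0.792%, 1.83%, and 1.80% in the Ground samples. The 130 sites of 17 alternate alpha and gamma genes had 5.19%, 6.41%, and 5.14% in the Space samples and 5.95%, 5.69%, and 6.87% in the Ground samples, above the C-type genes in every sample. The difference was -4.16 ± 0.820 percentage points (exact sign-flip permutation test over 6 samples, p = 0.03125, adjusted p = 0.0352), and it was -3.24 without *Pcdha8*, -4.18 with each gene weighted equally, and -8.58 with a window of 2000 bp. Of the 89 C-type sites, 100% had a mean level under 10%, compared with 86.2% of the alternate sites. This p-value covers the spread between samples and not the choice of sites or genes. By gene, *Pcdhac1* had 2.88%, with 28 sites from 111 bp upstream to 477 bp downstream of the TSS, and *Pcdhac2* had 1.44% at 25 sites. Several alternate genes lay below *Pcdhac1*, such as *Pcdhgb7* at 1.27%, *Pcdhgb6* at 1.57%, and *Pcdhga10* at 2.32%. Others lay above it, up to *Pcdha8* at 19.9%. *Pcdhgc5*, the last gene of the gamma cluster, had no site within 1000 bp, and its single analyzed site, 2047 bp downstream, had 93.7%.

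**Figure D2:**
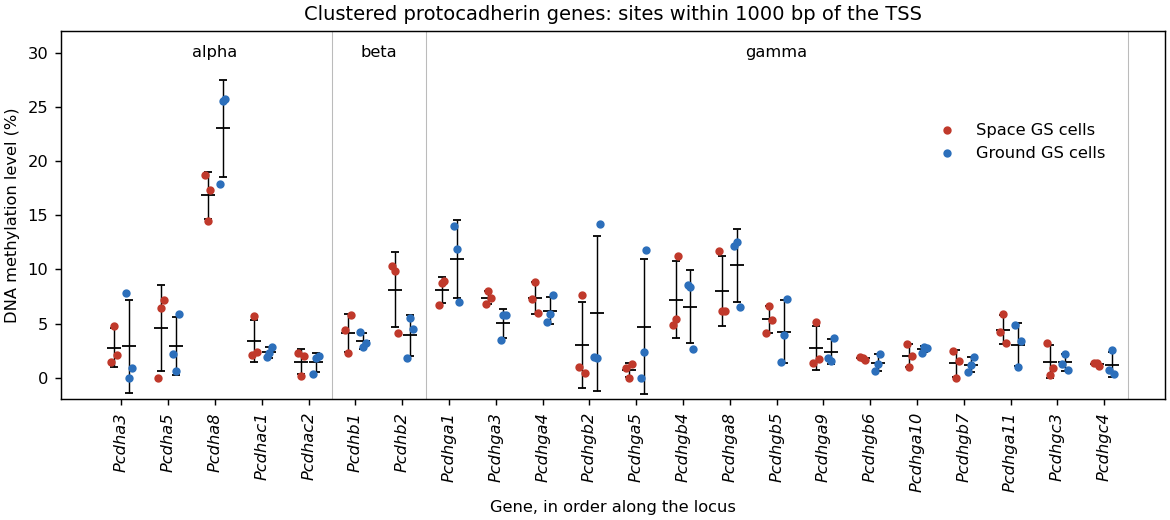
DNA methylation level (y axis, %) within 1000 bp of the TSS for the 22 members with at least 3 sites, in order along the locus (x axis), with points for the 3 Space and 3 Ground samples and bars for the group mean ± SD. *Pcdha8* lies at 14.5% to 25.7%, above the other genes, and the C-type genes *Pcdhac2*, *Pcdhgc3*, and *Pcdhgc4* have means under 2%.

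Beyond 1000 bp the members differed far more from each other than the samples did. Among 21 members with at least 3 such sites, *Pcdhga7*, an alternate gamma gene, was the highest, with 98.1%, 94.8%, and 93.4% in the Space samples and 99.1%, 96.9%, and 93.1% in the Ground samples, at 6 sites 1493 to 1651 bp downstream of its TSS. At about the same distance, 1468 to 1604 bp, 8 sites of *Pcdhgb4* had 2.78%, 3.80%, and 14.8% in the Space samples and 5.36%, 2.94%, and 2.34% in the Ground samples. Every sample was thus above 93% at one gene and below 15% at the other, although these stretches lay in the same position of their genes, both within the annotated first exon length (3044 and 2549 bp). *Pcdhga7* had no analyzed site within 1000 bp, so its promoter could not be described.

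Levels also changed along the first exon, and *Pcdhga3* and *Pcdhga4* went from a low to an intermediate level there. *Pcdhga3* had a mean level of 6.21% at 15 sites up to 975 bp from the TSS and 39.5% at 3 sites 1113 to 1187 bp downstream, where the 6 samples had 36.2% to 47.6%. *Pcdhga4* had 6.78% at 18 sites within 1000 bp and 29.8% at 5 sites 1009 to 1169 bp downstream. *Pcdhb17*, which had no analyzed site within 1000 bp, took the opposite course, with 40.5% at 5 sites 1038 to 1236 bp downstream and 5.15% at 3 sites 2144 to 2193 bp downstream, still within its first exon length of 4660 bp. Other genes were low in both stretches, as *Pcdhac2* had 1.44% within 1000 bp and 2.87% at 16 sites from 1018 to 1393 bp, and *Pcdhgb6* had 1.57% and 2.68%. Of 15 members with at least 3 sites 1000 to 2000 bp downstream, 7 had mean levels under 10%, 7 had levels of 10% to 90%, and *Pcdhga7* was above 90%.

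The alternate gamma genes form the A and B subfamilies, whose genes are interspersed along the cluster. Beyond 1000 bp, 26 sites of 6 gamma A genes had 47.4%, 49.4%, and 47.8% in the Space samples and 53.1%, 52.4%, and 48.7% in the Ground samples. The 35 sites of 5 gamma B genes had 6.25%, 6.04%, and 8.60% in the Space samples and 7.90%, 4.96%, and 5.43% in the Ground samples. The subfamily means did not overlap in any sample, but this split was noticed in the data and was not tested. By gene, the subfamilies overlapped. The gamma B gene *Pcdhgb8* had 21.3%, above the gamma A genes *Pcdhga10* at 12.7% and *Pcdhga11* at 9.09%. The split of the means also rested partly on *Pcdhga6*, with 96.2% at 2 sites, and *Pcdhga7*. Within 1000 bp the means were closer, at 5.62% for gamma A and 3.95% for gamma B. The gamma A sites included upstream sites that lay downstream of a gamma B TSS. These were 3 sites of *Pcdhga4*, 2721 to 2734 bp past the *Pcdhgb1* TSS, and 4 sites of *Pcdhga11*, 2483 to 2576 bp past the *Pcdhgb7* TSS.

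Sites more than 5000 bp from the TSS covered a wide range, with 6 of 11 upstream sites and 5 of 30 downstream sites at 90% or above. *Pcdhac1* had 90.4% at 6 sites, 4 of them about 16 kb upstream and 2 downstream at 26384 and 26388 bp, and *Pcdhgc3* had 97.9% at 2 sites 14340 and 14344 bp upstream. *Pcdha7* was intermediate, with 44.2% at 7 sites 6543 to 6644 bp downstream (36.5% to 50.8% in the 6 samples). *Pcdhb22*, the last beta gene, had 40.8% at 24 sites that extended to 47476 bp downstream. Because each site was assigned to the closest TSS, an upstream site can lie in a preceding gene. The 3 sites of *Pcdhga4* at 2243 to 2256 bp upstream, with levels of 23.6%, 47.2%, and 71.3%, lay 2721 to 2734 bp downstream of the *Pcdhgb1* TSS.

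**Figure D3:**
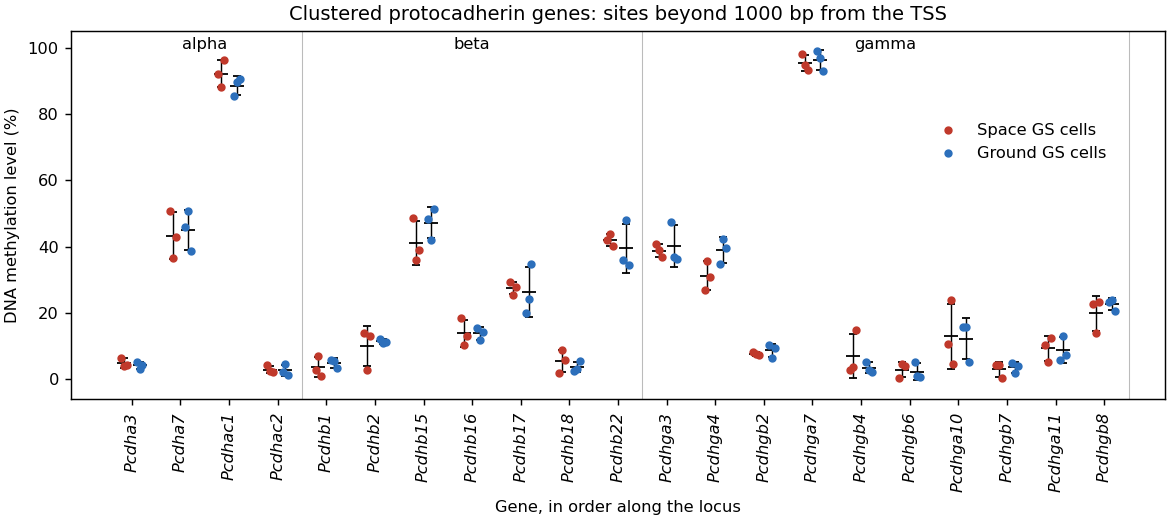
DNA methylation level (y axis, %) beyond 1000 bp from the TSS for the 21 members with at least 3 such sites, in order along the locus (x axis), with points for the 3 Space and 3 Ground samples and bars for the group mean ± SD. Genes range from 2.68% at *Pcdhgb6* to 95.9% at *Pcdhga7*, whereas the Space and Ground points of each gene overlap.

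Space and Ground GS cells had closely similar levels over the clusters as wholes. Within 1000 bp, all members had 4.50% ± 0.480 in the Space samples and 4.50% ± 0.512 in the Ground samples (SD over 3 samples each, exact permutation test, two-sided, p = 1), and beyond 1000 bp they had 30.3% ± 1.24 and 30.3% ± 0.743 (exact p = 0.9). With 3 against 3 samples, this exact permutation test cannot go below p = 0.1. The alpha cluster had 4.20% ± 0.835 and 4.21% ± 0.833 near the TSS (exact permutation test, p = 1), and the gamma cluster had 4.05% ± 0.590 and 4.29% ± 0.298 (p = 0.7). In the beta cluster, the near level was 11.0%, 9.24%, and 10.6% in the Space samples and 7.95%, 6.97%, and 9.04% in the Ground samples. All Space values were above all Ground values, a difference of 2.27 percentage points (exact permutation test, p = 0.1, the smallest it can give), over 15 sites of 4 genes, and the *Pcdhb13* site alone differed by 7.38. The difference was -4.45 with a minimum of 5 reads, where more beta sites entered. Beyond 1000 bp, Space less Ground was 1.13 for alpha, 0.236 for beta, and -0.724 percentage points for gamma, with exact permutation p-values of 0.7, 0.8, and 0.6.

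By gene, 15 of 22 members were higher and 7 lower in the Space samples within 1000 bp, compared with 7794 higher and 6567 lower among all genes, and 11 were higher and 10 lower of 21 members beyond 1000 bp. These tallies became 11 and 11 near the TSS without Ground 1, and 8 and 13 without Space 1 or 7 and 14 without Ground 3 far from it. The quasi-binomial test on methylated and total reads, with the spread between replicates moderated with limma over all genes and Benjamini-Hochberg adjustment over all genes, called 0 members at an adjusted p under 0.05 in either window, and 0% of all 14361 and 17203 genes tested. At an unadjusted p under 0.05 there were 0 of 22 members near the TSS (5.31% of all genes) and 1 of 21 far from it (5.48% of all genes), and edgeR had 0 called and 0 at an unadjusted p under 0.05 in both windows. The groups did not overlap at 1 of 22 members near the TSS, against 9.55% of all genes, and at 0 of 21 far from it, against 9.73%. The median absolute difference near the TSS was 1.10 percentage points for members and 0.598 for all genes, and far from the TSS it was 1.23 and 1.40.

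The member without overlap was *Pcdhga3*, named after its values were seen, with 6.84%, 8.02%, and 7.35% in the Space samples and 3.47%, 5.79%, and 5.77% in the Ground samples. The difference was 2.39 percentage points (quasi-binomial test with limma moderation, p = 0.265, adjusted p = 0.947). The largest near difference was at *Pcdha8*, with -6.20 percentage points, where 1 Ground sample lay among the Space samples (adjusted p = 0.935). At *Pcdhb2*, Space was higher by 4.19 (adjusted p = 0.962), and this was -0.69 with a minimum of 5 reads and -0.24 with a window of 2000 bp. At *Pcdhga5*, the levels were 0.862%, 0%, and 1.25% in the Space samples and 0%, 2.42%, and 11.8% in the Ground samples, so that the difference of -4.02 came from Ground 3. *Pcdhgb2* behaved alike, with 0.962%, 7.64%, and 0.446% in the Space samples and 1.88%, 1.79%, and 14.2% in the Ground samples, and its difference of -2.94 became 1.19 without Ground 3. At *Pcdhga1* the difference was -2.85 (adjusted p = 0.935), with overlapping samples.

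Far from the TSS, *Pcdhga4* had the largest difference. Its level was 27.1%, 35.8%, and 30.9% in the Space samples and 34.7%, 42.4%, and 39.8% in the Ground samples over 8 sites. Space was lower by 7.68 percentage points (quasi-binomial test with limma moderation, p = 0.0447, adjusted p = 0.903), with 1 Space sample inside the Ground range. With a window of 2000 bp it was lower by 2.04, and with a minimum of 20 reads by 4.87. The next were *Pcdhb15* with -6.05 and *Pcdhac1* with 3.64 percentage points, and both overlapped between the groups (adjusted p = 0.961 for both). The pooled *Pcdhb15* value was larger than the difference at any of its 3 sites, which were -0.709, -1.26, and -0.874 at mean levels of 98.3%, 8.69%, and 12.0%, and it was -0.709 with a window of 2000 bp.

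**Figure D4:**
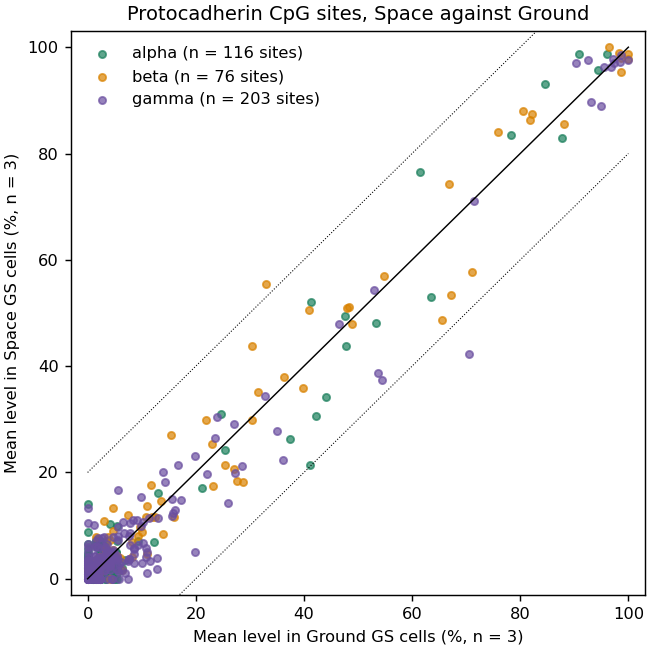
Mean DNA methylation level in the Space samples (y axis, %, n = 3) against that in the Ground samples (x axis, %, n = 3) for the 395 protocadherin sites, colored by cluster, with the line of equality and dotted lines 20 percentage points away from it. Only 2 sites lie outside the dotted lines, 1 of *Pcdhga4* below and 1 of *Pcdhb22* above.

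At single sites, 147 member sites had a mean level of 5% to 95% and were tested, and 75 of them were higher and 72 lower in the Space samples. The quasi-binomial test called 0 member sites, and 0% of 92042 sites in all, and the smallest adjusted p of a member site was 0.792. At an unadjusted p under 0.05 there were 6 member sites (4.08%, against 5.61% of all sites), and edgeR had 4 such sites and 0 called. The groups did not overlap at 23 member sites (15.6%, against 9.07% of all sites tested), which belonged to 11 genes. Neighboring sites read from the same fragments are not independent, and 4 of the 23 belonged to *Pcdhga4* and 3 each to *Pcdhb22* and *Pcdhgb2*. In absolute terms, the median difference between the groups was 4.16 percentage points over member sites and 4.25 over all tested sites.

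A difference of more than 20 percentage points was found at 2 of the 395 member sites (0.506%), against 0.196% of all 681804 sites. The site of *Pcdhga4* at 37819403, 1141 bp downstream of the TSS, had 52.6%, 31.3%, and 42.9% in the Space samples and 70.0%, 66.7%, and 75.0% in the Ground samples. All Space values were below all Ground values, with a difference of -28.3 percentage points over 10 to 19 reads (quasi-binomial test with limma moderation, p = 0.0262, adjusted p = 0.829). The site of *Pcdhb22* at 37698307, 47384 bp downstream of the TSS, had 46.7%, 66.7%, and 52.9% in the Space samples and 36.4%, 26.3%, and 36.4% in the Ground samples. Here all Space values were above all Ground values, with a difference of 22.4 (quasi-binomial test with limma moderation, p = 0.0541, adjusted p = 0.895), whereas the site of the same gene at 37698254, 47331 bp downstream, had -16.8. Just short of 20 percentage points were the *Pcdha8* site at 37125807 with -19.8 (adjusted p = 0.934) and the *Pcdhga4* site at 37819394 with -17.0 (adjusted p = 0.951).

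The *Pcdhga4* sites also made up the member region with the largest difference. Of 26 member regions of 3 or more sites with gaps of up to 100 bp, 14 were higher and 12 lower in the Space samples, 0 were called (0% of 12550 regions), and 1 had an unadjusted p under 0.05 (5.01% of all regions), by the quasi-binomial test and by edgeR alike. That region covered 3 sites from 37819394 to 37819432, 1132 to 1169 bp downstream of the *Pcdhga4* TSS. It had 36.8%, 37.5%, and 43.9% in the Space samples and 66.7%, 59.3%, and 52.8% in the Ground samples, without overlap. The difference was -20.2 percentage points (quasi-binomial test with limma moderation, p = 0.0129, adjusted p = 0.949). It was the only member region without overlap, against 9.43% of all regions, and the only one that differed by more than 20 percentage points, against 0.263% of all regions. The level within 1000 bp of the same gene was 7.24%, 8.88%, and 5.97% in the Space samples and 5.11%, 5.88%, and 7.60% in the Ground samples, so that the samples overlapped nearer to the TSS.

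**Figure D5:**
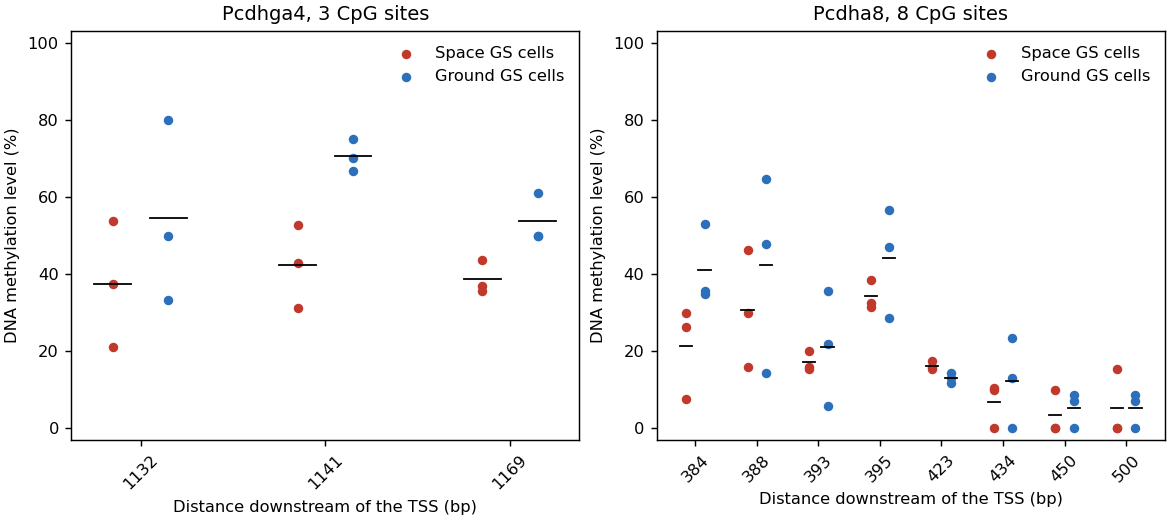
DNA methylation level (y axis, %) at each CpG site of the *Pcdhga4* region (left, 3 sites) and of the *Pcdha8* region (right, 8 sites), by distance downstream of the TSS (x axis, bp, sites evenly spaced), with points for the 3 Space and 3 Ground samples and lines for group means. At *Pcdhga4* the Ground means lie above the Space means at all 3 sites, with no overlap at 1141 and 1169 bp, and at *Pcdha8* both groups fall from means of up to 44.1% near 390 bp to 5.28% or less at 450 and 500 bp.

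Other genes of the pathway and the locus with at least 3 sites were low near the TSS in both groups. Of 12 protocadherin genes outside the clusters, which each have an ordinary promoter of their own, 10 had at least 3 sites within 1000 bp, with a median of 2.23% (1.29% to 3.64%), whereas *Pcdh12* had 97.3% at its single site (95.2% to 100% in the 6 samples). Of 10 genes in or beside the locus, such as *Taf7* and *Diaph1*, 5 had a median of 2.10% and levels up to 3.10%, and 12 of 14 regulators of the clusters, such as *Ctcf* and the cohesin genes, had a median of 1.55% and levels up to 2.60%. None of the tested genes of these lists had an adjusted p under 0.05 (quasi-binomial test with limma moderation), and neither did any of the 14361 genes tested. Of the regulators, 2 had an unadjusted p under 0.05, against 5.31% of all genes. *Dnmt3b*, the methyltransferase gene, had 2.69%, 1.91%, and 2.54% in the Space samples and 1.11%, 1.30%, and 1.16% in the Ground samples (limma-moderated quasi-binomial test, p = 0.00608, adjusted p = 0.912). *Stag2*, which encodes a cohesin subunit, had 2.98%, 2.08%, and 3.83% in the Space samples and 0.505%, 0%, and 0% in the Ground samples (limma-moderated quasi-binomial test, p = 0.0267, adjusted p = 0.912). At both genes all Space values were above all Ground values, where 9.55% of all genes had groups without overlap in either direction. The difference was 1.19 percentage points for *Dnmt3b* and 2.80 for *Stag2*. No sample of either gene was above 3.83%, so both differences lay near the floor of the measure.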

How the data were processed

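RRBS libraries had been prepared from genomic DNA with the Zymo-Seq RRBS Library Kit. The submitters' processing notes named Trim Galore, Bismark 0.24.2, methylKit, and the build mm39, with no role or order. The authors deposited, for each CpG site, the coverage per sample as a count of reads, the percent of them that were methylated, and the closest TSS and gene. Removal of duplicated reads was not given in the sources used here. Both strands of a CpG site shared a row. Whether the start coordinates count from 0 or 1 was not stated, and they are given as in the table.

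The number of methylated reads was the product of both (within 0.000266 of a whole read). Sites needed at least 10 reads in all 6 samples. Genes needed at least 3 sites, on reads pooled within or beyond 1000 bp, and regions 3 or more sites with gaps of up to 100 bp. Sites and regions were tested at mean levels of 5% to 95%. The quasi-binomial test used limma 3.58.1 (squeezeVar, R 4.3.3), Benjamini-Hochberg adjustment over the whole table, and a threshold of 0.05. It was also run on simulated data, but the share of changes it recovered is not given here. A lack of calls therefore does not show that the groups are equal. edgeR 4.0.16 was an alternative. Levels of site groups were means of site levels, compared with exact permutation tests of scipy 1.17.1. Other software was the R package data.table (version 1.17.8), Python 3.11.15, pandas 2.3.3, and matplotlib 3.10.9.

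The members and lists were chosen with earlier results of these data known. The genes named were, among members with at least 3 sites in a window, the 3 highest and 3 lowest near the TSS per cluster, the 5 largest near and 3 largest far differences, the 5 C-type genes, the 5 member sites with the largest differences, and sites that differed by more than 20 percentage points. Other genes named were chosen after their values were seen.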

Additional observations from a re-analysis of the deposited data

How the results depend on the processing

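No member was called in any of the 4 tests (sites, genes within and beyond 1000 bp, and regions) under a minimum of 5 or 20 reads, edgeR, the replicate block, or without any 1 replicate, nor with the wider level filter (run for sites) or the window of 2000 bp (run for genes). Almost nothing was called over the whole table either. The only calls were 1 of 92017 sites without Space 2, 3 of 92032 without Space 3, and 5 of 91999 without Ground 1. The lack of calls is thus not particular to the members. Same-numbered Space and Ground samples had correlations of their deviations of 0.0438, 0.0220, and 0.00988, and differently numbered samples had -0.0367 to 0.0146. The labels did not say whether the numbers form pairs. All these correlations were small, so the numbers were not taken as pairs in the main tests, but pairing is not excluded. With the replicate block, 0 member sites, genes, and regions were called. The differences between Space and Ground in cluster levels were small and changed sign. Within 1000 bp, alpha (main value -0.00989) was 0.312 with a minimum of 20 reads, 0.0312 with reads pooled over sites, and 0.148 with a window of 2000 bp, and gamma was 0.779 and 0.293 with minimums of 5 and 20 reads. Beta was -4.45 with a minimum of 5 reads, and 1.90 without the *Pcdhb13* site. Gamma beyond 1000 bp was 0.0799 with a window of 2000 bp. Leaving out each replicate in turn gave -0.459 to 0.454 for alpha within and -0.335 to 2.67 for alpha beyond 1000 bp, -0.341 to 1.27 for beta beyond, -0.472 to 0.0933 for gamma within, and -1.42 to 0.132 for gamma beyond. Among the contrasts between site groups, alpha less gamma was -3.07 with a minimum of 20 reads, -0.259 with pooled reads, -5.11 with a window of 2000 bp, and -0.0986 to 0.193 without 1 replicate. Members less others was 5.83 beyond 1000 bp with a window of 2000 bp. Settings chosen after seeing the data were equal weight for each gene, which gave 1.51 for alpha less gamma and -1.002 for members less others within 1000 bp, leaving out the *Pcdhb13* site, which gave -0.526 for alpha less beta and 0.553 for beta less gamma, and leaving out *Pcdha8*, which gave -1.72 for alpha less gamma. Of the named genes, *Pcdhb2* was -0.686 with a minimum of 5 reads and -0.237 with a window of 2000 bp, *Pcdhga5* was 0.296 with a minimum of 5 reads, and *Pcdhgb2* ranged from -5.25 to 1.19 without 1 replicate. The within less beyond and C-type less alternate contrasts kept their sign under every alternative run. The minimum of 5 reads was not run for the contrasts between site groups. The cause of the changes was not tested. With 5 samples the sign-flip test cannot pass 0.05. RRBS reads only part of each promoter, and at a site with 10 reads 1 read is worth 10 percentage points.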
